A study of Saccharomyces cerevisiae with 5 samples.

Results

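The response of budding yeast to an intermediate phosphate supply was described by setting the array of cells given 0.1 mM phosphate against the arrays of cells given 1 and 10 mM. These are 3 of the 5 arrays of the study, chosen by their labelled dose. All 5 cultures were Saccharomyces cerevisiae of strain W303 with the genotype PHO4-MYC::TRP1, a MYC-tagged allele of PHO4 next to the marker TRP1. Log-phase cells were kept for 3 h in medium without phosphate, then moved to 0, 0.01, 0.1, 1 or 10 mM phosphate for 80 min. Every dose was measured on 1 Affymetrix array, so no difference has a replicate error and no test between doses was possible. Whether the cultures shared a day or a starter is not stated. The study had no array of an untagged or PHO4-deleted strain among the samples analysed here, and the mating-type genes matched an a strain: STE2 had a signal of 117 at 0.1 mM, while STE3 and SAG1, which only alpha cells use, were below the floor of 11.4 on the 3 arrays.

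Pho4 is the transcription factor of the phosphate (PHO) pathway. When phosphate is ample, the cyclin-dependent kinase Pho80-Pho85 phosphorylates Pho4 and keeps it out of the nucleus. When phosphate is scarce, the inhibitor Pho81 blocks the kinase, and Pho4 enters the nucleus and turns on genes for phosphate uptake, secreted phosphatases and polyphosphate storage. In this yeast, intermediate phosphate is known for partial phosphorylation of Pho4, a state in which PHO84 is expressed and PHO5 is not.

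The values are MAS5 signals, 1 per probe set and array, in arbitrary linear units. Signals below 11.4, the 40th percentile of all values in the table, were set to that floor, and differences were taken on the log2 scale. A probe set was called higher at 0.1 mM when it lay at least 2-fold above the higher of its values at 1 and 10 mM, and lower when it lay at least 2-fold below the lower of them. The distance to that nearer dose is the fold given below. Of the 6504 probe sets that name 1 gene, 4941 reached the floor on at least 1 of the 3 arrays and could be called. They represent 4668 genes. A fold against values at the floor is a lower bound and is written "at least". Where a gene has several probe sets, values in gene lists come from the one with the highest mean signal over all 5 arrays.

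PHO84, the high-affinity phosphate transporter gene, was the gene that set 0.1 mM most apart from 1 and 10 mM. From 0 to 10 mM its signals were 1369.9, 1157, 172, 27.8 and 27.4. The array of 0.1 mM thus lay between the arrays of low and of ample phosphate, which did not overlap with it. Its signal at 0.1 mM was 6.19-fold above the nearer of the 2 higher doses, a log2 difference of 2.63, while 1 and 10 mM differed from each other by 0.02 on the log2 scale (-0.02, 10 mM minus 1 mM). It was the 1 probe set of 4941 that lay outside both higher doses by at least 4-fold. Between 1 and 10 mM, 2 probe sets differed by at least 4-fold.

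The other Pho4 targets were near their ample-phosphate level at 0.1 mM. Of the 24 targets listed, 21 had a probe set of their own and 17 reached the floor on 1 of the 3 arrays; PHO84 was the 1 called higher (5.88% of the 17) and 0 were called lower. The background over all 4941 probe sets was 27 called higher (0.546%) and 38 called lower (0.769%), or 65 in either direction (1.32%). Between 1 and 10 mM 77 probe sets (1.56%) differed by at least 2-fold, 34 higher (0.688%) and 43 lower (0.87%) at 10 mM, although lying outside 2 doses is the stricter criterion. The list's median difference, 0.1 mM minus the mean of 1 and 10 mM, was 0.28 on the log2 scale, beside 0.15 over all 4668 genes, and 0.28 without PHO84. The same medians between 1 and 10 mM (10 mM minus 1 mM) were 0.14 for the list and 0.11 for all genes.

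**Figure D1:**
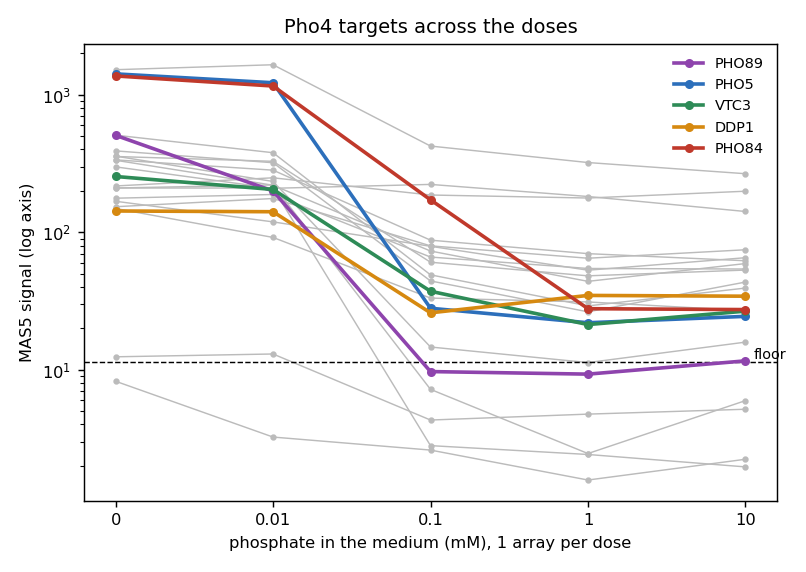
MAS5 signal (log axis) of the probe sets of 21 Pho4 targets at each phosphate dose, 1 array per dose, with the floor of 11.4 as a dashed line. PHO84 is at 172 at 0.1 mM and near 27 at 1 and 10 mM, whereas at 0.1 mM PHO5 is at 28.0 and PHO89 is below the floor.

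Among the transporters, PHO84 and PHO89 parted at 0.1 mM. PHO89, the sodium-coupled phosphate transporter gene, had 199 at 0.01 mM and then 9.69, 9.29 and 11.6 from 0.1 to 10 mM. Its 3 values from 0.1 mM up were at or next to the floor. The glycerophosphoinositol transporter gene GIT1 was below the floor on the same 3 arrays, after 221 at 0.01 mM. So was SPL2, a regulator that holds down low-affinity uptake, after 210 at 0.01 mM. PHO86, which helps Pho84 leave the endoplasmic reticulum, had 187 at 0.1 mM against 177 and 199.

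Among the phosphatase genes, the secreted acid phosphatase gene PHO5 had 1222 at 0.01 mM and then 28.0, 21.96 and 24.4 from 0.1 to 10 mM. It was therefore 1.15-fold above the nearer ample dose at 0.1 mM, against 6.19-fold for PHO84. PHM8, a nucleotide phosphatase gene, had 48.997 at 0.1 mM against 29.1 and 39.3. The vacuolar alkaline phosphatase gene PHO8 had 79.0 against 52.9 and 65.3. GPP2, for glycerol phosphatase, had 44.2 against 26.4 and 43.4, and GDE1, for a glycerophosphodiesterase, had 33.2 against 31.1 and 26.9. None of these 5 was 2-fold above both ample doses.

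The genes of polyphosphate synthesis were above both ample doses, each by less than 2-fold. VTC1, VTC2, VTC3 and VTC4 encode the vacuolar transporter chaperone complex that makes polyphosphate. VTC3 was the target with the next largest distance after PHO84: it had 37.2 at 0.1 mM, 21.3 at 1 mM and 26.7 at 10 mM, 1.40-fold above the nearer dose. VTC1 had 423 against 321 and 266, and VTC2 87.6 against 69.9 and 62.0. VTC4 had 60.5 against 48.2 and 53.1 on the probe set that was brighter over all 5 arrays, and its other probe set gave 73.002 against 43.9 and 59.2. PPN1, for a polyphosphatase, had 79.6 against 64.7 and 74.6. DDP1, which hydrolyses inositol pyrophosphates and polyphosphate, was the 1 target below both doses, at 25.9 against 34.7 and 34.3.

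PHO81, the inhibitor of the kinase, had 66.0 at 0.1 mM against 54.5 and 54.0. PHM6, of unsettled function, had 14.6 against 11.3 and 15.9, and KRE2, a mannosyltransferase gene, 223 against 182 and 142. CTF19 and PHM7 were below the floor on all 3 arrays.

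For 17 targets the share of the log2 distance from 0.01 mM to the mean of 1 and 10 mM that was left at 0.1 mM was computed. It is not a share of the signal itself. The 17 are the targets whose log2 signal dropped by at least 1 over that distance. This set includes SPL2 and GIT1, which are at the floor at the higher doses, and leaves out PHO86 and KRE2. At 0.1 mM PHO84 still had 48.99% of its log2 distance of 5.39. The other 16 ranged from -20.2% (DDP1) to 42.0% (PHO8), with a median of 11.9%. PHO8 reached its value over a short distance, 1.02 on the log2 scale, and from 0.01 to 0.1 mM it went from 119 to 79.0. PHO5 kept 4.77% of a distance of 5.72, VTC1 21.3% of 2.498 and PHO81 15.7% of 1.79. On the linear scale PHO84 at 0.1 mM had 14.9% of its signal at 0.01 mM. PHO8 had 66.4%, PHO81 35.1%, VTC1 25.6% and PHO5 2.29%. These percentages have no error, and the floor shortens the distance of the dimmest targets.

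Regulators and low-affinity transporters of the pathway had 0 of 11 measured genes called, with a median of 0.25 (0.01 between 1 and 10 mM). The low-affinity transporter gene PHO90 stood farthest out, at 397 at 0.1 mM against 274 and 275. It had 129 at 0 mM and 116 at 0.01 mM, so its highest signal of the 5 arrays was at 0.1 mM. PHO13, a phosphatase gene, had 277 against 199.996 and 212. The transcription factor gene PHO4 itself had 76.3 at 0.1 mM, between 54.3 at 1 mM and 78.8 at 10 mM, and its marker TRP1 had 109, between 84.1 and 125.

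Across all measured probe sets, the difference at 0.1 mM was somewhat wider than that between the ample doses. The 2 contrasts are unlike: the first sets 1 array against a mean of 2, the second 1 array against 1. Equal noise on every array would make the first the narrower. Its SD was 0.38 (log2) around a median of 0.16, against 0.35 around 0.11 for 10 mM minus 1 mM. The middle 90% lay between -0.56 and 0.68 for 0.1 mM and between -0.49 and 0.61 for 10 against 1 mM. At 0.1 mM 2696 probe sets were above both ample doses, 884 below both, and 1361 between them or equal. Against 1 mM alone 80 were at least 2-fold higher (1.62%) and 63 lower (1.28%), and against 10 mM alone 114 (2.31%) and 82 (1.66%). The 27 called higher and 38 called lower became 13 and 68 with arrays scaled to 1 median, and 13 and 63 after quantile normalization.

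**Figure D2:**
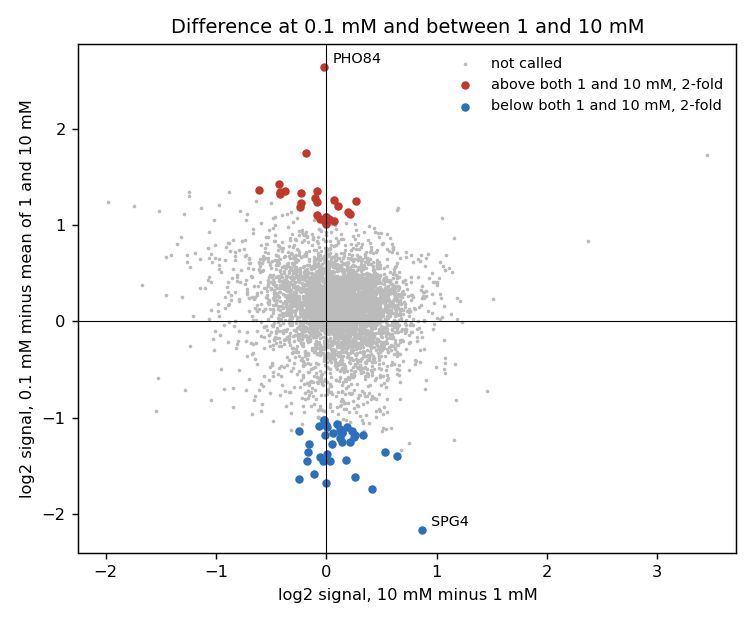
Each point is 1 of 4941 probe sets, with log2 signal at 10 mM minus 1 mM on the x axis and log2 signal at 0.1 mM minus the mean of 1 and 10 mM on the y axis. PHO84 lies at 2.64 on the y axis and -0.02 on the x axis, apart from the other 26 probe sets called higher (red), and SPG4 is lowest among the 38 called lower (blue).

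The 27 probe sets called higher belong to 26 genes. After PHO84 their distances to the nearer dose were small: the median over the 27 was 2.16-fold. HAC1, the transcription factor gene of the unfolded protein response, had 2 called probe sets. On its farthest one the signals were 44.5, 102, 152, 48.4 and 42.5 from 0 to 10 mM, 3.14-fold above the nearer dose. On the other it had 198, 451, 607, 281 and 210. Both were highest at 0.1 mM, and the remaining 2 probe sets of HAC1, which were not called, had 217 against 133 and 106, and 821 against 529 and 543. All 4 lay above both ample doses, at differing distances, and 3 of them carry name suffixes that mark probe sets with shared or fewer unique probes. KAR2, the chaperone gene that Hac1 is known to activate, had 569, 565, 408, 300.0 and 342 from 0 to 10 mM. Unlike HAC1, it was higher at 0 and 0.01 mM than at 0.1 mM. KAR2 was looked up after HAC1 had been called.

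Some genes called higher stepped down across the doses, with 0.1 mM on the way. The glucokinase gene GLK1 had 759, 674, 123, 59.5 and 58.6 from 0 to 10 mM, 2.06-fold above the nearer dose. SPG3, a gene of stationary phase, had 44.9, 53.9, 30.2, 12.3 and 12.9, and PFU1 had 72.04, 73.1, 34.7, 15.1 and 14.3. For these 3 genes the array of 0.1 mM lay between the low and the ample doses, as for PHO84. Of the 27 probe sets 16 instead had their highest signal of all 5 arrays at 0.1 mM. Over all 4941 probe sets 1245 did, but the rule already placed the 27 above both ample doses. Of the 4941 probe sets 2696 were above both.

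The called genes highest at 0.1 mM had mixed roles. PMA1, for the plasma membrane proton pump, had 380.0, 343, 521, 248 and 210 from 0 to 10 mM, 2.10-fold above the nearer dose. YPT31, for a GTPase of the Golgi, had 198, 225, 244, 109 and 84.0. IRC22, of unsettled function, had 184, 280, 418, 190 and 142. THG1, which adds a guanosine to histidine tRNA, had 182, 148, 223, 96.0 and 71.3, and ASM4, a nucleoporin gene, had 20.6, 15.2, 29.8, 12.7 and 11.8. YHR050W-A had 30.6 at 0.1 mM against 14.2 and 12.1. The mannosyltransferase gene MNN1 was not highest there: it had 108 at 0.01 mM and 67.4 at 0.1 mM, against 28.4 and 30.6. FCY21 and CIP1, both below the floor at 1 and 10 mM, were at least 2.12-fold and at least 2.11-fold above them.

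Several called probe sets cannot be tied to 1 gene with confidence. PMA2, at 31.5 against 15.1 and 14.2, encodes a near-identical copy of the PMA1 pump. COS7, at 68.1 against 26.1 and 31.5, belongs to a family of near-identical genes, and so does COS10. SUF5 is a tRNA gene and had 48.7 against 19.7 and 18.6. RDN37-1, the ribosomal RNA precursor, was called on 1 of 7 measured probe sets, with 81.5 against 35.04 and 29.95, and 1 of the others lay between the ample doses. For the RNA polymerase I subunit gene RPA190 the probe sets differed: 1 was called higher, at 26.8 against 9.60 and 13.1, while the brightest was below both doses, at 217 against 282 and 261. Over the 181 genes with several measured probe sets the difference at 0.1 mM spanned a median of 0.31 (log2) within a gene, and for 12 of these genes it spanned more than 1.

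The 38 probe sets called lower belong to 38 genes, and 35 of them had their lowest signal of all 5 arrays at 0.1 mM. Over the 4941 probe sets 660 did, counting ties at the floor. These counts are not like for like, since the rule already placed the 38 below both ample doses. Of the 4941 probe sets 884 were below both. SPG4, a gene of stationary phase, had 559, 255, 9.25, 38.0 and 69.2 from 0 to 10 mM. It was below the floor at 0.1 mM, at least 3.32-fold under the nearer dose. The alcohol dehydrogenase gene ADH6 had 81.7, 117, 40.05, 129 and 129, a 3.21-fold distance, with 1 and 10 mM almost equal. ANY1 had 68.0, 65.1, 21.8, 67.9 and 62.9, so the other 4 arrays were alike and 0.1 mM alone was low.

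COX7 and ATP14 were the 2 genes called, both lower, of 43 measured genes of respiration and the citric acid cycle, whose median was 0.20. They make 4.65% of that list, beside 0.769% of all measured probe sets called lower. COX7, a subunit gene of cytochrome c oxidase, had 584, 602, 206, 698 and 587 from 0 to 10 mM, 2.86-fold under the nearer dose. ATP14, for a subunit of ATP synthase, had 312, 384, 121, 258 and 284, and its second probe set had 106 against 194 and 198. The mitochondrial ribosomal protein genes NAM9 and MRPL44 had 28.3 against 81.8 and 109, and 30.9 against 86.9 and 104. A second, dimmer probe set of MRPL44 was not called. It was below the floor at 0.1 mM against 15.3 and 13.4, at least 1.17-fold under the nearer dose. The chaperonin gene HSP10 had 227 against 473 and 564.

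LEU4 and ILV2 were the 2 genes called, both lower, of 54 measured genes of amino acid synthesis, whose median was 0.18. They make 3.7% of that list, beside 0.769% of all measured probe sets called lower. LEU4, for isopropylmalate synthase, had 740, 345, 161, 447 and 438 from 0 to 10 mM, and ILV2, for acetolactate synthase, had 496, 231, 66.5, 180 and 173. Both were lowest at 0.1 mM, by 2.71-fold and 2.60-fold against the nearer ample dose. LEU1, of the same leucine pathway, lay on the other side: 362 at 0.1 mM against 237 and 209.

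Other genes called lower were of mixed roles. The ribosome assembly helicase gene HAS1 had 54.1, 37.6, 53.3, 144 and 148 from 0 to 10 mM, so it was low at 0.1 mM and also at the lower doses. The mannan polymerase gene VAN1 had 35.1 at 0.1 mM against 102 and 90.5. NUP116, a nucleoporin gene, had 33.5 against 90.7 and 81.0, and IOC4, of a chromatin remodelling complex, had 19.4 against 49.4 and 56.0. YKE2, a prefoldin subunit gene, had 13.0 against 31.0 and 32.2. ABZ2, of folate synthesis, had 13.7 against 35.1 and 31.4, and YML018C had 80.2 against 208 and 209. Of the remaining 23 genes called lower, ARA2 and RSC58 were below the floor at 0.1 mM and at least 2.10-fold and at least 2.14-fold under the nearer dose, and the others were between 2.01-fold and 2.27-fold under it.

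**Figure D3:**
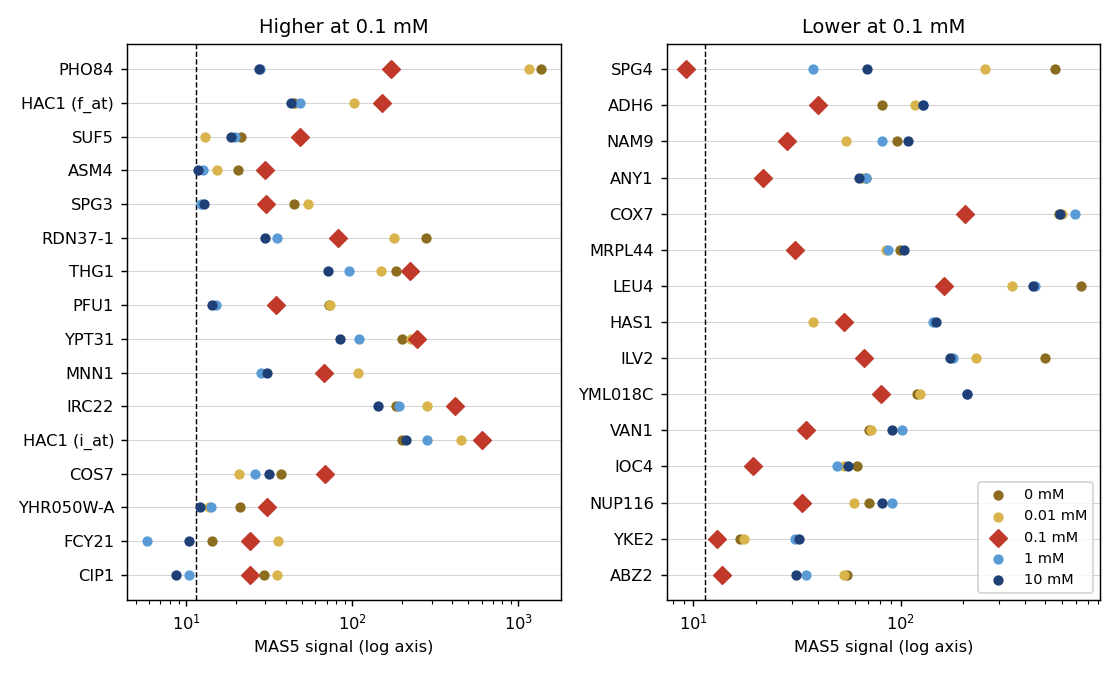
MAS5 signal (log axis) at each of the 5 doses for the 15 genes farthest above (left, 16 probe sets, 2 of them for HAC1) and the 15 farthest below (right) both ample doses. The red diamond is 0.1 mM, the dashed line is the floor, and PHO84 at 172 lies between 1157 at 0.01 mM and 27.8 at 1 mM.

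Against all 4 other arrays, 3 probe sets were at least 2-fold higher and 19 at least 2-fold lower at 0.1 mM. The 3 higher were SUF5 (2.29-fold), COS10 (2.08-fold) and a probe set of RPA190 (2.05-fold). The 5 lower ones with the largest distance were SPG4 (at least 3.32-fold), ANY1 (2.89-fold), COX7 (2.84-fold), MRPL44 (2.76-fold) and ILV2 (2.60-fold). The probe sets next to the 2-fold limit on the inside were ICE2 above and VPS20 below, each at 2.01-fold. FIR1, below the floor at 1 and 10 mM, was at least 2.01-fold above them. On the outside they were CAP1 at 1.99-fold above and RNH201 at 1.996-fold below.

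The probe sets called in either direction were not spread evenly over the numbers in the probe-set names. All 38 called lower had numbers from 8149 to 10670, and 26 of the 27 called higher had numbers below 8000; PHO84, at 9762, was the exception. Numbers from 8000 up make 44.02% of the measured probe sets. Their median difference at 0.1 mM was 0.01, against 0.25 below 8000, while for 10 mM minus 1 mM the medians were 0.14 and 0.07. The SD of the difference at 0.1 mM was 0.44 for numbers in the block that starts at 9000, against 0.24 in the block that starts at 7000. Called probe sets also lay next to each other: 14 of the 38 lower ones had a number adjacent to another of the 38, among them SPG4 with ILV2, HAS1 with ABZ2, and COX7 with GFD1.

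Probe sets with nearby numbers had similar differences at 0.1 mM. Over 3530 pairs with consecutive numbers Pearson's r was 0.52, over 3229 pairs 35 numbers apart it was 0.14, and over 3017 pairs 69 numbers apart it was 0.50. For 10 mM minus 1 mM the same values were 0.29, 0.04 and 0.31. The numbers follow gene order, since 91.7% of consecutive pairs are at most 2 genes apart in RefSeq assembly R64. Among neighbouring genes, r at 0.1 mM was 0.55 for 2806 pairs with consecutive numbers and -0.03 for 277 pairs with numbers more than 200 apart. These are descriptions across probe sets of the same arrays, which are not independent. The place of each probe set on the array is not given in the sources used here, and the part of this pattern in the 65 calls was not tested beyond the subtraction that follows.

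A local level was therefore taken for each probe set, as the median difference of the measured probe sets up to 3 and 67 to 72 numbers away, a choice made after seeing the data. Among the 38 called lower it was negative for 36, with a median of -0.51, and among the 24 of the 27 called higher that had at least 5 such neighbours it was positive for all 24, with a median of 0.43. For the distances, the same local median was taken and subtracted separately for the difference from 1 mM and for that from 10 mM. The distance to the nearer dose was then taken anew, so it is not the first distance minus the level above. After this subtraction of the local level 1 of the 24 was still at least 2-fold above both ample doses, PHO84, with a log2 distance of 2.43. Its 11 neighbours had differences between -0.12 and 0.45. Of the 38 called lower 7 were still at least 2-fold below both doses: ADH6 (-1.32), YOL038C-A (-1.26), COX7 (-1.15), MRPL44 (-1.12), ATP14 (-1.11), APN1 (-1.05) and HFD1 (-1.004). HAC1 was at 0.89 on its farthest probe set, SPG4 at -0.92, ILV2 at -0.62 and LEU4 at -0.56. Of the polyphosphate genes VTC3 was at 0.30, VTC1 at 0.09, VTC2 at 0, and VTC4 at 0.24 and 0.42 on its probe sets. In all, 1 probe set was called higher and 8 lower after subtraction, and 36 differed 2-fold between 1 and 10 mM.

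**Figure D4:**
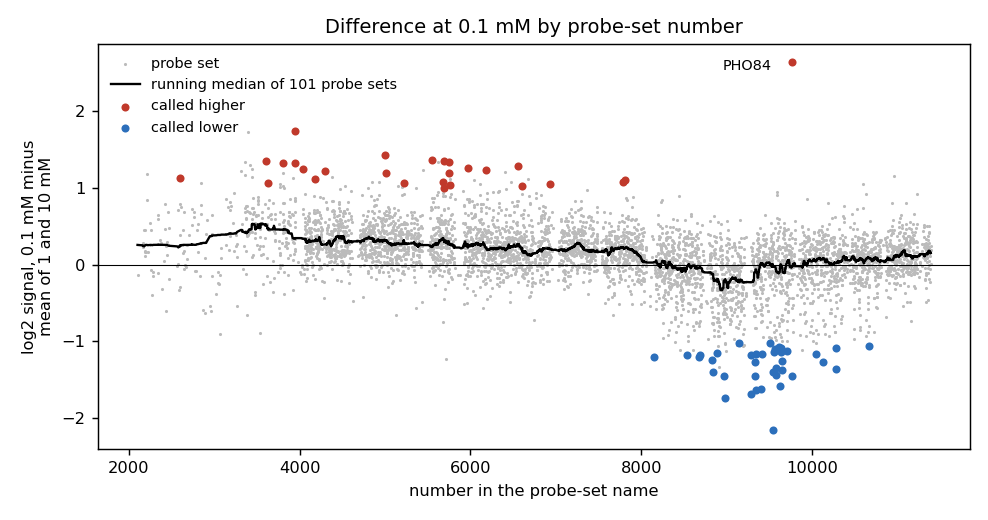
Log2 signal at 0.1 mM minus the mean of 1 and 10 mM (y axis) against the number in the probe-set name (x axis) for the measured probe sets, with a running median (black). The 38 called lower (blue) all have numbers above 8000, and 26 of the 27 called higher (red) have numbers below 8000, with PHO84 at 9762 apart from both.

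Of the 27 gene lists described, 17 had 0 members called, and the list medians at 0.1 mM ranged from -0.04 (iron uptake) to 0.34 (nitrogen catabolite repression) beside 0.15 over all 4668 genes. The medians of 10 mM minus 1 mM ranged from -0.14 to 0.32. After subtraction of the local level the list medians at 0.1 mM ranged from -0.16 to 0.22. These medians depend on how the arrays are scaled: the median of all probe sets was 0.02 with arrays at 1 median and -0.42 at equal spike-in signal. Of all genes 69.6% lay above the mean of 1 and 10 mM at 0.1 mM. By the probe set of highest mean signal, 23 of the 4668 genes were called higher and 38 lower.

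Stress genes under Msn2 and Msn4 had 1 of 34 called, GLK1, with a median of 0.26. This is 2.94%, beside 0.546% of all measured probe sets called higher. Next to it was HSP26, a small heat shock protein gene, at 20.4 at 0.1 mM and below the floor at 1 and 10 mM, at least 1.78-fold apart. It had 905 at 0.01 mM. Of the 34 genes 25 were above both ample doses and 6 below both. Most measured probe sets also lay above both: 2696 of 4941, with 884 below both. Among heat shock chaperones HSP10 was the 1 of 21 called, lower, and the median was 0.20. That is 4.76%, beside 0.769% of all measured probe sets called lower. Vacuolar proteolysis and autophagy had 0 of 16 called (median 0.18), and the protease gene PRB1 was farthest out with 131 against 77.7 and 89.05, followed by the aminopeptidase gene APE2 with 63.3 against 49.5 and 45.0.

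Ribosome biogenesis had HAS1 as the 1 of 61 called, lower, and a median of 0.12 (0.19 between 1 and 10 mM). That is 1.64%, beside 0.769% of all measured probe sets called lower. Of 81 ribosomal protein genes 0 were called, with a median of 0.11 (-0.14 between 1 and 10 mM). The farthest were RPL15B, at 119 against 258 and 208, and RPL27B, at 1190.2 against 711 and 634. Copies of these genes are near-identical, so how signal divides between them is uncertain.

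The list of hexose transporter and glucose sensing genes had 1 call in each direction. MIG2, a glucose-induced repressor gene, had 111, 68.5, 130, 63.5 and 60.8 from 0 to 10 mM, and the hexose transporter gene HXT2 had 335, 227, 277, 666 and 561. They were the 2 called of its 14 measured genes (14.3%, median 0.13), beside 1.32% of all measured probe sets called in either direction. The glucokinase gene GLK1, also called higher, was counted in the stress list. The local level moved the distances of MIG2 and HXT2 from 1.03 to 0.66 and from -1.02 to -0.14 on the log2 scale. Of 16 glycolysis genes 0 were called (median 0.29): TDH1 had 85.0 against 59.7 and 62.7, and ENO1 400.2 against 296 and 258. Of 13 glucose-repressed genes 0 were called (median -0.02), with the invertase gene SUC2 at 18.1 against values below the floor and the acetyl-CoA synthetase gene ACS1 at 15.9 against 18.1 and 26.5.

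**Figure D5:**
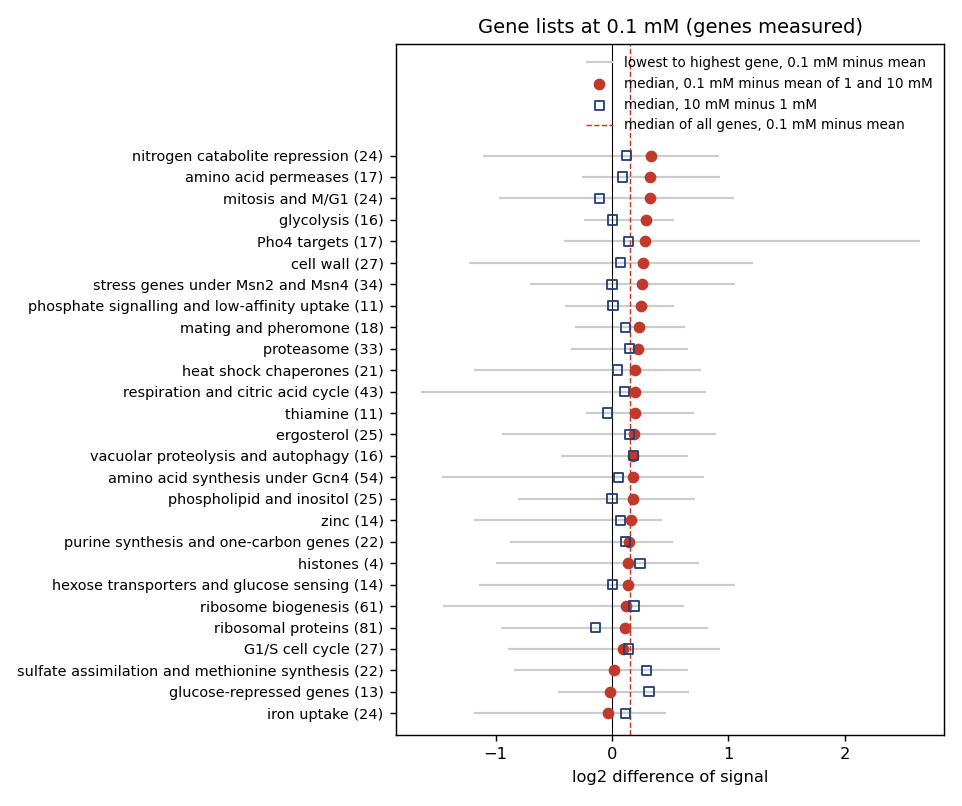
For each gene list (genes measured in brackets), the median log2 difference of 0.1 mM from the mean of 1 and 10 mM (red point), the range over its genes (grey line) and the median of 10 mM minus 1 mM (open square). The red medians lie between -0.04 and 0.34 around the median of all genes, 0.15 (dashed), and the Pho4 list's range reaches 2.64 through PHO84.

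Metal uptake lists had the low-affinity iron transporter gene FET4, at 24.6 at 0.1 mM against 56.2 and 55.7, and SMF3, a vacuolar metal transporter gene, at 27.7 against 58.9 and 59.3. These were the 2 of 24 iron genes called (8.33%, beside 0.769% of all measured probe sets called lower). FET4 was also the 1 of 14 called in the zinc list (7.14%, beside the same 0.769%, median 0.17). The distances of FET4 and SMF3 after subtraction of the local level were -0.82 and -0.75. Sulfur assimilation had 0 of 22 called (median 0.02), with MET1 at 27.0 against 42.4 and 54.9, and SAM2, for S-adenosylmethionine synthetase, at 179 against 116 and 111. Purine synthesis had 0 of 22 (median 0.14), with ADE13 at 116 against 204 and 223, and GCV2, of glycine cleavage, at 17.5 against 25.4 and 25.2.

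Lists of nitrogen and amino acid uptake had medians among the highest, with 0 members called. Nitrogen catabolite repression had a median of 0.34 over 24 genes, of which 18 were above both ample doses and 2 below both. Over all 4941 measured probe sets these counts were 2696 and 884. CAR2, of arginine breakdown, had 12.9 against 23.4 and 33.4, and the ammonium permease gene MEP1 had 263 against 140 and 153. Amino acid permeases had a median of 0.33 over 17 genes, with the arginine permease gene CAN1 at 86.5 against 40.5 and 51.2, and BAP3 at 164 against 105 and 93.9. Both medians were nearer to 0 with the local level subtracted, at 0.22 and 0.20.

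Lipid lists had no calls. Of 25 phospholipid and inositol genes (median 0.18) the phosphatidate phosphatase gene PAH1 was below the floor at 0.1 mM against 20.7 and 19.4, and ITR2, an inositol transporter gene, had 49.6 against 89.1 and 79.9. Of 25 ergosterol genes (median 0.19) ERG5 had 55.2 against 96.6 and 116, and ERG1 418 against 244 and 206. Of 11 thiamine genes (median 0.20) THI4 had 65.7 against 39.8 and 40.7, and THI7 222 against 188 and 176.

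Cell cycle and cell surface lists had 1 call, MCM3, a subunit gene of the replicative helicase, at 37.9 against 17.9 and 18.8, which the local level took from 1.01 to 0.10 (log2). It was the 1 of 24 mitosis and M/G1 genes called (4.17%, beside 0.546% of all measured probe sets called higher, median 0.33). Of 27 G1/S genes (median 0.10) CDC6, for a loader of that helicase, had 21.7 against values below the floor, and POL2, for a DNA polymerase, had 29.1 against 43.5 and 42.1. Of 4 histone genes (median 0.14) HTZ1 had 102 against 175 and 239, and HHO1 88.9 against 52.5 and 53.3. Of 27 cell wall genes (median 0.26) CRH1 was 1.98-fold above the nearer dose, at 227 against 111 and 115, and SED1 had 987 against 598 and 304. Of 18 mating genes (median 0.23) the receptor gene STE2 had 117 against 71.97 and 78.9, and AGA1 18.4 against 13.0 and 11.9. Of 33 proteasome genes (median 0.23) RPN6 had 149 against 95.9 and 94.5, and SCL1 190 against 120 and 133.

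The arrays themselves differed in ways that bear on these comparisons. The median signal over all probe sets was 19.7, 17.03 and 18.4 on the arrays of 0.1, 1 and 10 mM. In the same order, signal at the 3' end over the 5' end, which reflects how intact the RNA was, came to 1.11, 2.19 and 2.02 for ACT1 and to 2.01, 2.35 and 1.51 for TBP. The arrays of 0 and 0.01 mM enter the share left at 0.1 mM and the order over 5 arrays. Their median signals were 25.5 and 20.6, their ACT1 ratios 2.37 and 3.00, and their TBP ratios 2.63 and 4.52. The mean signal of the poly-A spike-in controls was 243, 72.3, 38.9, 27.6 and 23.4 from 0 to 10 mM. These controls, 12 probe sets, were 1.53-fold higher at 0.1 mM than the mean of 1 and 10 mM, and the 9 hybridisation controls were 1.15-fold lower. With arrays scaled to equal spike-in signal, which shifts every probe set of an array alike, the median difference of all probe sets was -0.42 and that of the Pho4 targets -0.23, with PHO84 still the 1 target called. The part of these array differences in the calls was not tested.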

How the data were processed

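Biotin-labelled cRNA from 5 cultures was hybridised to 1 Affymetrix array each. The deposited values are MAS5 signal intensities on a linear scale, per the submitters' processing notes. Their version, scaling target, filters and genome build were not stated, and no detection call was used. Of 9335 probe sets 6504 were listed with 1 gene, 328 with several and 2503 not at all. The 6504 were named by gene identifier in RefSeq assembly R64, and all matched. Signals were floored at the 40th percentile (3.52 on the log2 scale). Differences and calls were computed in Python 3.11.15 with pandas 2.3.3. The code was checked on simulated bright probe sets with less noise than these arrays, which does not measure the error of the calls.

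Named were the 15 genes farthest out in each direction, all measured Pho4 targets, PHO4, TRP1, all called list members and the 2 farthest in lists without a call, plus the 5 farthest out against all 4 other doses. Other genes named (such as KAR2, LEU1, PMA1 and those still called after subtraction of the local level) were chosen after their values were seen. The comparison and the lists were chosen with earlier results of these data known. In all, 10 alternatives were planned and 2, on probe-set numbers, were added after seeing the data. No sequences are shown. The number of arrays limits the precision.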

Additional observations from a re-analysis of the deposited data

Results flagged for a closer look

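Signals outside the single-gene probe sets also differed at 0.1 mM. The 12 poly-A spike-in probe sets were 1.53-fold higher at 0.1 mM than the mean of 1 and 10 mM, and 11 of the 12 were above both. The 10 ribosomal RNA control probe sets were 1.51-fold higher, with 9 above both. Among 2771 probe sets without a single listed gene, of which 889 were measured, 13 were called higher (1.46%) and 6 lower (0.675%) at 0.1 mM, while 30 differed 2-fold between 1 and 10 mM. None of these was part of the calls and lists above, although the spike-in controls were used to scale the arrays in an alternative. No cause was tested.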

How the results depend on the processing

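PHO84 was the 1 Pho4 target called higher under all 12 alternatives, with a log2 difference from 2.03 to 2.65. The counts of other calls moved. Probe sets called higher and lower numbered 27 and 38 in the main setting, 13 and 68 at 1 median, 13 and 63 after quantile normalization, 2 and 273 at equal spike-in signal, 12 and 18 with a floor at the 60th percentile, 7 and 15 with a pseudocount, 80 and 63 against 1 mM alone and 114 and 82 against 10 mM alone. With a floor at the 20th percentile 52 were called higher, with the filter on mean signal 14. Subtracting a local median over 50 numbers gave 4 higher, and over near and 67 to 72 numbers 1 higher and 8 lower. Probe sets that differed between 1 and 10 mM, 77 in the main setting, were 207 at equal spike-in signal, 210 and 36 with floors at the 20th and 60th percentiles, 24 with the pseudocount, 50 with the filter and 36 with the second local median.

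The median of all probe sets, 0.16, was 0.015 at 1 median, 0.024 after quantile normalization, -0.42 at equal spike-in signal, and -0.0016 and -0.0042 with the local medians, by their construction. The median of the Pho4 targets, 0.28, was 0.13, 0.13 and -0.23 under those 3 scalings, 0.41 with the filter, and 0.11 and 0.052 with the local medians. The causes of these changes were not tested. For a named gene the cutoff for a moved value was 0.35 (log2), the SD of 10 mM minus 1 mM. For a list it was 0.11, the median of that difference. Over 90 named genes and the other lists, 1062 of 1351 values moved by less than their cutoff and 289 by more. Named genes with a main difference of at least 1 (log2) in size had 0 reversals of sign. Other called genes were not compared. No paired analysis was possible because each dose had 1 array.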
